A study of Mus musculus with 24 samples.

Results

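The comparison described here set the hippocampal CA1 region taken 72 h after pilocarpine-induced status epilepticus (SE 72 h) against CA1 taken 36 h after it (SE 36 h). Where values run from one set of 3 to another, they are those of SE 36 h and then of SE 72 h, each in the order of replicates 1, 2 and 3. Members were chosen by the time and treatment in the sample labels, which gave 3 libraries at each time, 6 of the 24 libraries of the series. Of 18647 genes in the count table, 18153 passed the filter on low counts and were tested. Status epilepticus is a seizure that does not stop by itself, and in rodents it starts a silent period that ends in chronic epilepsy. All mice were adult C57Bl/6N animals, at least 60 days old and at least 20 g in weight. SE mice received 1 mg/kg scopolamine methyl nitrate, which keeps pilocarpine from acting outside the brain, then 335 mg/kg pilocarpine, a muscarinic agonist, and 4 mg/kg diazepam 40 min after SE began. Only pilocarpine-injected mice that developed SE were kept. Control mice (Ctr) were given the same scopolamine and diazepam, with saline in place of pilocarpine, so the diazepam was shared by every group. Ctr 36 h and Ctr 72 h, with 3 libraries each, are the controls used below. The mice lived on a 12 h light and dark cycle, so 36 h and 72 h after an injection at a given hour fall at opposite phases of the day. Within the SE libraries the time since SE and the hour of the day cannot be told apart. Whole CA1 was cut by eye from brain slices, so each library mixes neurons, glia and vessels. The labels do not say which libraries came from separate mice, so the p-values measure the spread between these libraries.

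The SE 36 h libraries held 12015641 to 16955333 counts and the SE 72 h libraries 10088496 to 20278630, within 2663936 to 30133731 over the whole series. Some libraries stood apart. Markers of sensory ganglia, which lie outside the brain, summed to 10.2, 10.5 and 1007 CPM (counts scaled to library size) in SE 36 h replicates 1, 2 and 3 and to 1120, 591 and 23.9 CPM in SE 72 h replicates 1, 2 and 3, over the 12 markers tested. Ctr 72 h replicate 2 held 2097 CPM of them, and the Ctr 36 h libraries 6.4 to 70.5 CPM. Prph, a neurofilament of peripheral neurons, followed this split with 0.148, 0.473 and 181 CPM at 36 h and 219, 124 and 4.14 at 72 h. The high libraries lay in both groups and none of the 12 was called, while 8 were called higher when replicate 3 of both SE groups was left out. Dentate granule cell markers split differently: Prox1, their defining transcription factor, was at 46, 56.8 and 15.8 CPM at 36 h and 134, 15.2 and 22.1 at 72 h, highest in SE 72 h replicate 1. CA1 markers were present in every library and summed to 1082, 1030 and 1236 CPM at 36 h and 477, 1063 and 1044 CPM at 72 h over 8 genes, with SE 72 h replicate 1 lowest. The controls held 2022, 2178 and 2065 CPM in Ctr 36 h and less, 1498, 1298 and 1102 CPM, in Ctr 72 h. Main counts are therefore also given for the ganglion-low libraries, those with under 100 CPM of ganglion markers. These set SE 36 h replicates 1 and 2 against SE 72 h replicate 3 alone, a lone library assumed to vary as the other groups did. The part of these transcripts in any one result was not tested beyond that.

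**Figure D1:**
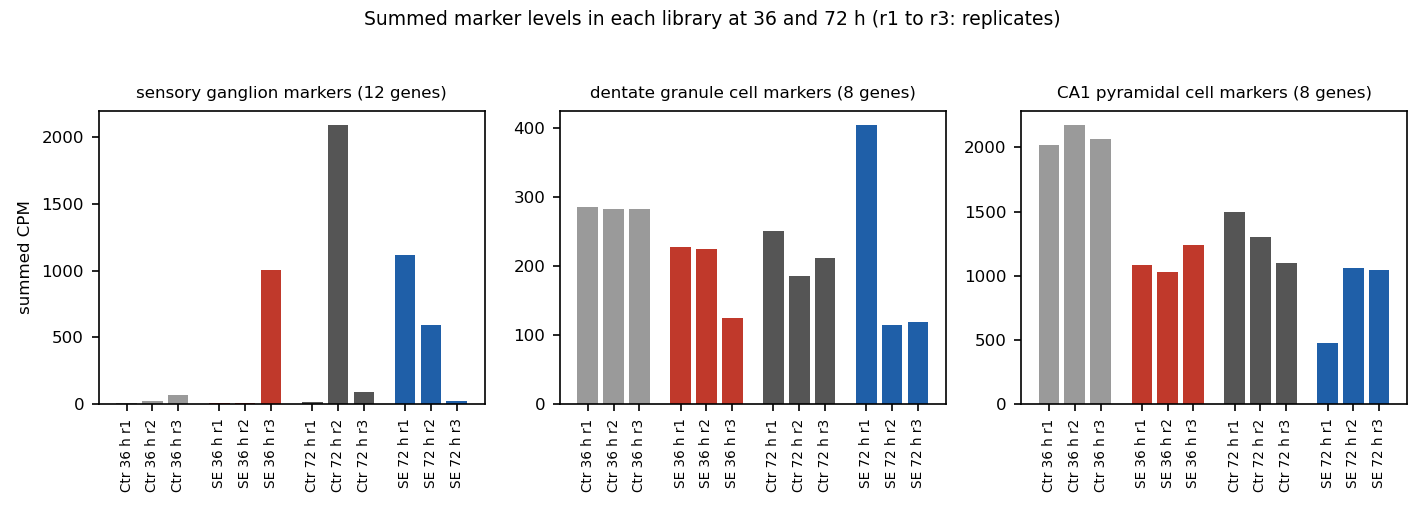
Summed CPM of sensory ganglion, dentate granule cell and CA1 pyramidal cell markers (vertical axes) in each of the 12 libraries at 36 and 72 h (bars: light grey Ctr 36 h, red SE 36 h, dark grey Ctr 72 h, blue SE 72 h). Ganglion markers reach 1007 CPM in SE 36 h replicate 3 and 1120 CPM in SE 72 h replicate 1 but only 23.9 CPM in SE 72 h replicate 3, and dentate markers are highest, at 405 CPM, in SE 72 h replicate 1.

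As background, an episode of SE leaves dying neurons behind, and the glia of the hippocampus answer over days. Resting microglia, the macrophages of the brain, carry sensors such as P2ry12 and Tmem119, switch many of them off when they are activated, divide, and load their lysosomes to clear debris. Astrocytes take up glutamate and potassium in the resting brain and build filaments and secrete matrix and signals when reactive, while surviving neurons switch on activity-dependent genes during and after seizures.

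Between 36 and 72 h, 560 genes rose and 190 fell, 750 of 18153 tested genes in all (4.13%, with 3.08% higher and 1.05% lower). A gene was called when its adjusted p in edgeR's quasi-likelihood test was at most 0.05 and its log2 fold change (log2FC, 72 h over 36 h) was at least 1 in size. Each log2FC below is given ± its s.e. The 3 libraries of each time did not overlap for 545 of the genes that rose and 182 of those that fell, beside 17.3% and 13.2% of all tested genes with no overlap in these directions. The median log2FC of all genes was 0.05. In the ganglion-low libraries 491 genes were called, 377 higher and 114 lower, and 302 of these were among the 750. Leaving out SE 36 h replicate 2 left 371 calls, 282 higher and 89 lower, and leaving out SE 72 h replicate 2 left 119 lower calls. Against control, where the limit on log2FC was 0.66, 12.7% of the tested genes were higher and 8.91% lower at 36 h, and 15.2% higher and 4.2% lower at 72 h (21.6% and 19.4% in all). Every value against control at 72 h rests on Ctr 72 h libraries of 11680209, 5793721 and 2663936 counts, the last the fewest of the series. They also took the largest values, in size, of the fit's factor for unwanted variation, at -0.378, 0.802 and -0.368. Their label numbers, 167 to 169, have no stated meaning and lay outside the 102 to 122 of the other libraries at 36 and 72 h. In whole tissue, fewer cells of a type and less RNA per cell cannot be told apart, so every level below is a level per tissue RNA.

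Among called genes whose log2 CPM averaged at least 1 and whose libraries did not overlap, the 15 largest rises and 15 largest falls are named here and in the paragraphs on their lists. Btbd17 led the rises (GRCm39 chr11:114655016-114686805), at 1.7, 1.42 and 0.627 CPM at 36 h and 12, 11.3 and 15.3 at 72 h (log2FC 3.43 ± 0.40, adjusted p = 3.3e-05). All 3 SE 72 h libraries lay near the Ctr 36 h range of 13.3, 10.2 and 10.7 CPM, and all 3 SE 36 h libraries far under it. Klhdc7a (log2FC 2.78 ± 0.64, adjusted p = 0.0095) and Etnppl (log2FC 2.61 ± 0.65, adjusted p = 0.015), an astrocyte enzyme that breaks down phosphoethanolamine, were likewise below control at 36 h (log2FC -3.28, adjusted p = 0.00061 and log2FC -2.95, adjusted p = 0.0017) and not called against control at 72 h. Igfbp2, which binds insulin-like growth factors, went from 81.1, 36 and 51.5 to 346, 378 and 310.0 CPM (log2FC 2.61 ± 0.36, adjusted p = 0.00013). Unlike these, it was above control at both times, with a log2FC against Ctr of 1.87 (adjusted p = 0.00047) at 36 h and 4.19 (adjusted p = 1.8e-07) at 72 h. Etnppl stood highest in SE 72 h replicate 1, at 41.1 CPM, and was not called with SE 36 h replicates 2 or 3 or SE 72 h replicate 1 left out or in the ganglion-low libraries (log2FC 1.25 to 2.40, adjusted p = 0.055 to 0.20). Klhdc7a was not called in the ganglion-low libraries (log2FC 2.63, adjusted p = 0.061). Gpr179 (log2FC 2.54 ± 0.77, adjusted p = 0.041) and Cpne9 (log2FC 2.53 ± 0.78, adjusted p = 0.044), a copine, also ranked among the rises. Gpr179 was not called with any one SE 36 h library or any one SE 72 h library left out or in the ganglion-low libraries (log2FC 2.25 to 2.79, adjusted p = 0.062 to 0.25). Cpne9 was not called with SE 36 h replicates 1 or 2 or SE 72 h replicates 1 or 2 left out or in the ganglion-low libraries (log2FC 1.88 to 2.68, adjusted p = 0.064 to 0.19).

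**Figure D2:**
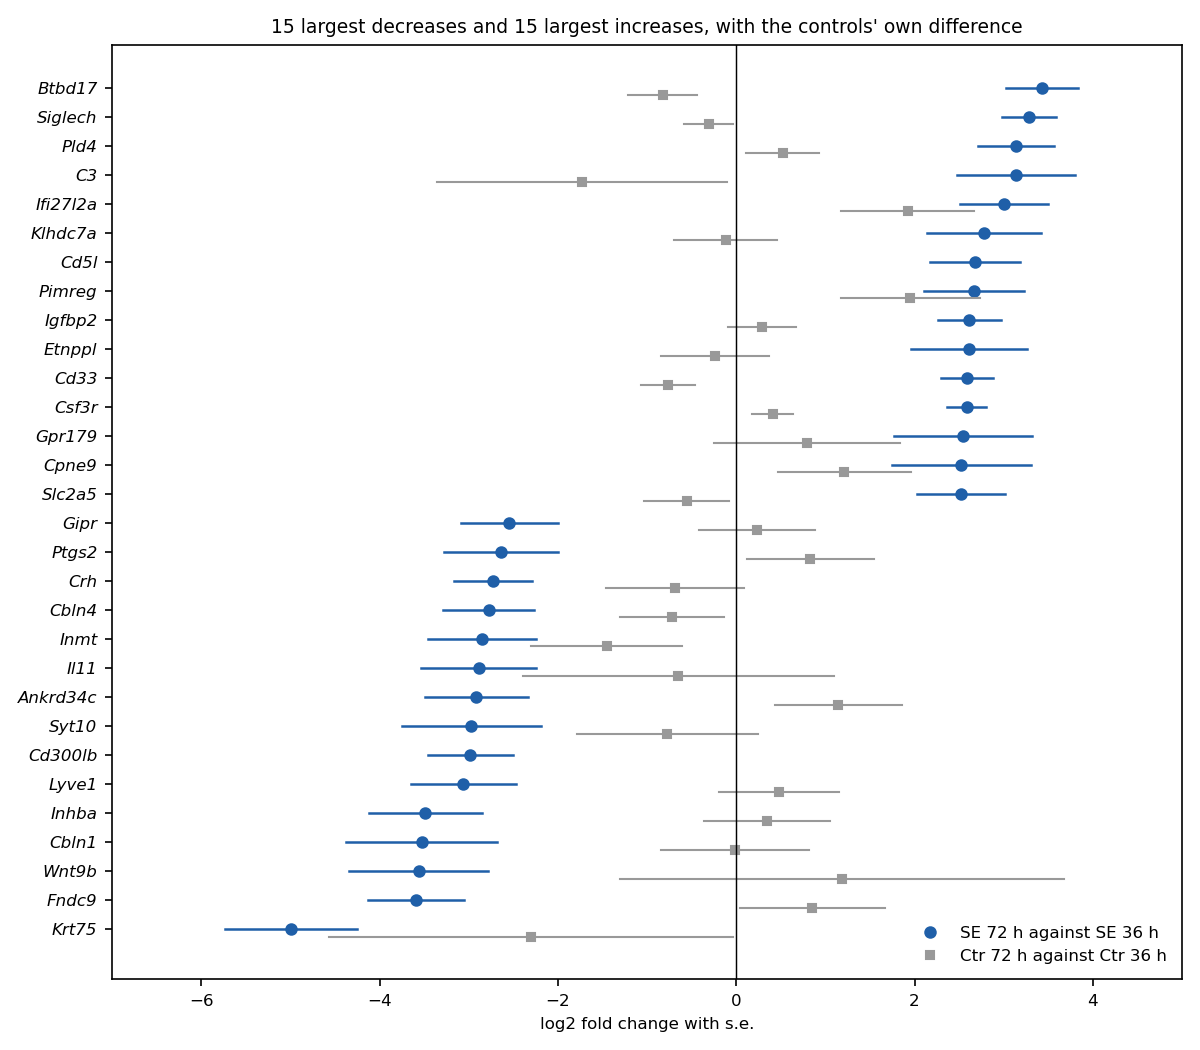
log2FC with its s.e. (horizontal axis) of the 15 largest rises and 15 largest falls between SE 36 h and SE 72 h (blue circles) and of the same genes between Ctr 36 h and Ctr 72 h (grey squares, left out for Cd5l and Cd300lb, which had no count in these controls). The SE values run from 3.43 for Btbd17 to -4.99 for Krt75, with each s.e. drawn for the control values too.

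Genes of resting microglia rose together. Of 11 tested markers of homeostatic microglia, 9 rose and none fell, with a median log2FC of 1.35 beside 0.05 for all genes, and in the ganglion-low libraries 10 were called. Siglech, a lectin that marks microglia over blood-derived macrophages (GRCm39 chr7:55417926-55429195), stood at 2.82, 1.89 and 2.34 CPM at 36 h and 14.1, 35.2 and 20.3 at 72 h (log2FC 3.29 ± 0.30, adjusted p = 3.2e-06). Its SE 36 h libraries lay far below the controls, which held 20.9, 22.3 and 20.0 CPM in Ctr 36 h and 19.2, 16 and 15.4 CPM in Ctr 72 h, and its SE 72 h libraries were close to the control range or above it. P2ry12, the purinergic receptor that guides microglial processes to injury, went from 12.3, 8.98 and 13.4 to 39.9, 80.7 and 67.9 CPM (log2FC 2.43 ± 0.23, adjusted p = 4.6e-06). Selplg, a selectin ligand, went from 26.6, 13.5 and 18.5 to 69.3, 111 and 91 CPM (log2FC 2.21 ± 0.27, adjusted p = 3.9e-05). Both were below control at 36 h (log2FC -2.12, adjusted p = 9.5e-07 and log2FC -1.09, adjusted p = 0.0031) and above it at 72 h (log2FC 0.69, adjusted p = 0.026 and log2FC 1.29, adjusted p = 0.0011). P2ry13 (log2FC 1.35 ± 0.24, adjusted p = 0.0014) was level with control at 36 h (log2FC 0.00, adjusted p = 0.99) and above it at 72 h (log2FC 1.59, adjusted p = 8.9e-05).

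Olfml3 and Cx3cr1 were already above control at 36 h and rose further, and 10 of the 11 markers were above control at 72 h. Csf1r, the receptor for the growth factor on which microglia depend, went from 166, 149 and 161 to 328, 482 and 461 CPM (log2FC 1.42 ± 0.14, adjusted p = 4.6e-06). Olfml3 went from 84.7, 70.3 and 88.8 to 152, 247 and 241 CPM (log2FC 1.40 ± 0.23, adjusted p = 0.00058). The fractalkine receptor Cx3cr1 went from 109, 102 and 91.7 to 165, 236 and 287 CPM (log2FC 1.17 ± 0.18, adjusted p = 0.00039), with no overlap for either. Gpr34 (log2FC 1.06 ± 0.26, adjusted p = 0.013) rose by a smaller margin. Cx3cr1 was not called with SE 72 h replicate 3 left out (log2FC 0.99, adjusted p = 0.0042). Gpr34 was not called with SE 36 h replicate 2 or SE 72 h replicate 3 left out (log2FC 0.76 to 0.93, adjusted p = 0.075 to 0.094). Tmem119 (log2FC 1.01 ± 0.41, adjusted p = 0.13) and Sall1 (log2FC 0.93 ± 0.22, adjusted p = 0.011), the transcription factor of microglial identity, did not pass although their libraries did not overlap, since Tmem119 missed the limit of p and Sall1 the limit of size. Fcrls was not among the tested genes.

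Genes shared by microglia and other macrophages moved the same way: 8 of 10 rose and all 10 were at or under an adjusted p of 0.05, with a median log2FC of 1.39 and 9 called in the ganglion-low libraries. Ctss, the lysosomal cathepsin of antigen-presenting cells (GRCm39 chr3:95433963-95463717), stood at 91.1, 79.5 and 91.1 CPM at 36 h and 256, 298 and 304 at 72 h (log2FC 1.71 ± 0.13, adjusted p = 6e-07), with each time's libraries close together and far from the other's. Laptm5 went from 63.1, 54.4 and 64.4 to 147, 188 and 225 CPM (log2FC 1.63 ± 0.21, adjusted p = 5.8e-05). Itgam, the CD11b integrin chain, went from 19.9, 23.8 and 12.7 to 47.5, 59.6 and 64 CPM (log2FC 1.62 ± 0.24, adjusted p = 0.0003). Aif1, the calcium-binding protein stained as Iba1, went from 10.4, 5.91 and 12.9 to 22.7, 31.8 and 35.2 CPM (log2FC 1.61 ± 0.32, adjusted p = 0.0032). Tyrobp, the signalling adaptor of Trem2, rose from 29.6, 31.8 and 32.8 to 66.2, 76.7 and 100 CPM (log2FC 1.36 ± 0.18, adjusted p = 0.00011). Spi1 (log2FC 0.93 ± 0.24, adjusted p = 0.019) and Cd68 (log2FC 0.86 ± 0.26, adjusted p = 0.037) were within an adjusted p of 0.05 but changed by less than the limit. Other genes overlap 67.4% of Itgam's exonic bases, and counting ignored strand, so its count is uncertain.

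Other genes of microglia and macrophages, outside these lists, were among the largest rises. Cd33, an inhibitory sialic acid receptor, went from 6.96, 6.07 and 10.5 to 35.5, 55.7 and 56.6 CPM (log2FC 2.59 ± 0.29, adjusted p = 1.8e-05). Csf3r, the receptor for granulocyte colony-stimulating factor, went from 9.19, 7.09 and 8.55 to 45.6, 48.9 and 53.8 CPM (log2FC 2.58 ± 0.22, adjusted p = 1.2e-06), with 36 h libraries around the Ctr 36 h values of 8.13, 7.67 and 8.71 CPM and 72 h libraries far above them. Pld4, a nuclease of myeloid lysosomes, stood at 10.6, 4.73 and 6.38 CPM at 36 h and 43.8, 78.8 and 68.5 at 72 h (log2FC 3.14 ± 0.42, adjusted p = 0.00012). Slc2a5, the fructose transporter found in microglia, was at 1.19, 1.81 and 1.37 CPM at 36 h and 3.73, 9.35 and 11.4 at 72 h (log2FC 2.52 ± 0.49, adjusted p = 0.0028). None of the 4 was called above control at 36 h. The log2FC against Ctr was -0.46 (adjusted p = 0.23) at 36 h and 2.89 (adjusted p = 6.7e-07) at 72 h for Cd33 and 0.02 (adjusted p = 0.96) at 36 h and 2.19 (adjusted p = 5.9e-07) at 72 h for Csf3r. It was -0.46 (adjusted p = 0.42) at 36 h and 2.16 (adjusted p = 0.00064) at 72 h for Pld4 and -2.40 (adjusted p = 0.00086) at 36 h and 0.68 (adjusted p = 0.31) at 72 h for Slc2a5. Cd5l, a scavenger protein secreted by macrophages, was at 1.7, 1.18 and 2.11 CPM at 36 h and 10.9, 10.3 and 11.8 at 72 h (log2FC 2.68 ± 0.51, adjusted p = 0.0049), with no count in any Ctr 36 h or Ctr 72 h library.

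**Figure D3:**
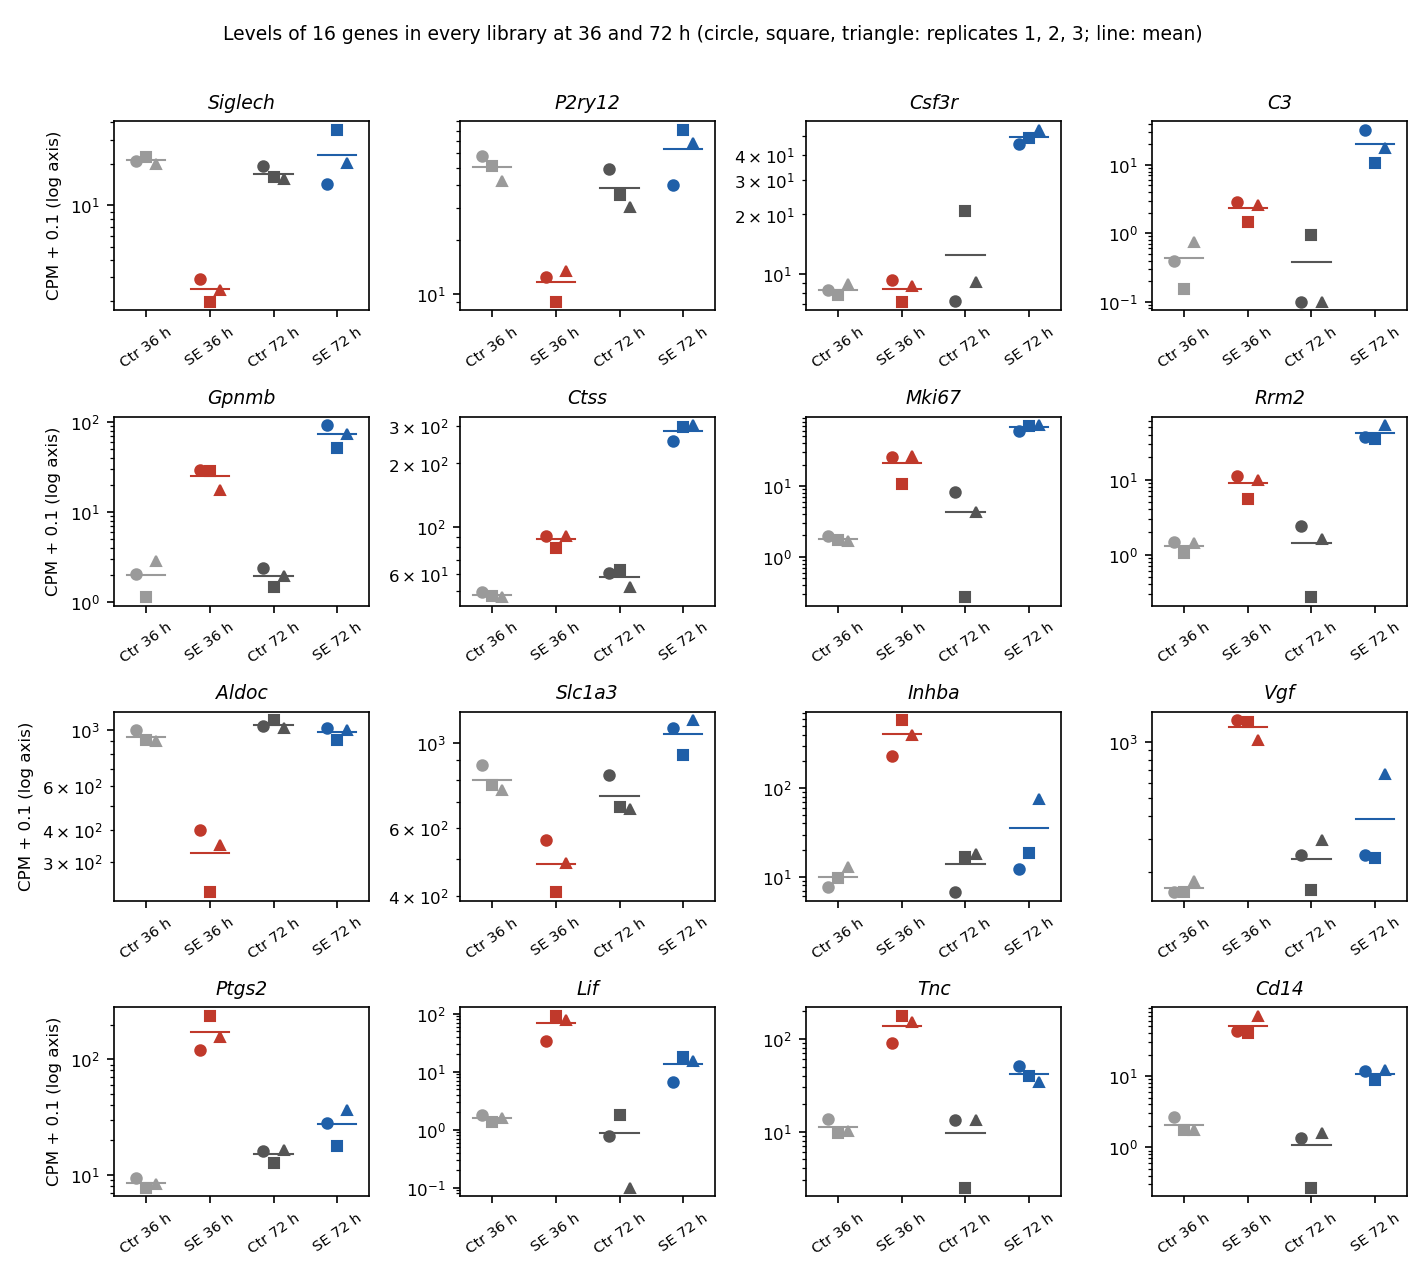
CPM + 0.1 on a log axis of 16 genes in the 12 libraries at 36 and 72 h (circles, squares and triangles: replicates 1, 2 and 3; lines: means; colours: light grey Ctr 36 h, red SE 36 h, dark grey Ctr 72 h, blue SE 72 h). The microglial genes Siglech and P2ry12 and the astrocyte gene Aldoc are lowest at SE 36 h and near or above control at SE 72 h, Csf3r, Ctss and Mki67 are highest at SE 72 h, and Inhba, Ptgs2, Lif and Cd14 are highest at SE 36 h.

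Of 18 genes of the lysosome and phagocytosis 9 rose, all 18 had libraries that did not overlap, and 17 of the 18 had an adjusted p of at most 0.05, all of them upward (median log2FC 1.0). All 18 were above control at 72 h and 12 at 36 h. Ctsh, a cathepsin, went from 25, 22.8 and 24.1 to 60.0, 84.8 and 85.3 CPM (log2FC 1.68 ± 0.18, adjusted p = 1.3e-05), with little spread at 36 h. Grn, the lysosomal growth factor progranulin, went from 203, 185 and 194 to 446, 515 and 594 CPM (log2FC 1.42 ± 0.11, adjusted p = 6e-07). Gusb, a glucuronidase, went from 73.5, 54.1 and 76 to 115, 149 and 181 CPM (log2FC 1.13 ± 0.17, adjusted p = 0.0003). Ctsz (log2FC 1.13 ± 0.15, adjusted p = 0.00013), Ncf1 (log2FC 1.03 ± 0.27, adjusted p = 0.021), a subunit of the phagocyte oxidase, Npc2 (log2FC 1.03 ± 0.12, adjusted p = 3.1e-05), the lysosomal cholesterol carrier, Man2b1 (log2FC 1.03 ± 0.10, adjusted p = 7e-06) and Hexa (log2FC 1.02 ± 0.14, adjusted p = 0.00013) rose by close to 1 log2 unit. Several lay close to the limit of 1: leaving out SE 72 h replicate 3 gave 3 of 18, and leaving out SE 36 h replicate 2 gave 5 of 18. Gusb was not called with SE 36 h replicate 2 or SE 72 h replicate 3 left out (log2FC 0.96 to 0.99, adjusted p = 0.0028 to 0.0039). Npc2 was not called with SE 36 h replicate 2 or SE 72 h replicate 3 left out (log2FC 0.93 to 0.94, adjusted p = 0.00023 to 0.00046). Hexa was not called with SE 36 h replicate 2 or SE 72 h replicate 3 left out (log2FC 0.86 to 0.99, adjusted p = 0.00056 to 0.0019). Ctsz was not called with SE 72 h replicate 3 left out (log2FC 0.99, adjusted p = 0.00094). Man2b1 was not called with SE 72 h replicates 2 or 3 left out (log2FC 0.98, adjusted p = 7.9e-05 to 0.0001). Ncf1 was not called with SE 36 h replicates 2 or 3 or SE 72 h replicates 2 or 3 left out or in the ganglion-low libraries (log2FC 0.89 to 1.09, adjusted p = 0.058 to 0.12). In the ganglion-low libraries 10 of 18 were called. The membrane proteins Lamp1 (log2FC 0.53 ± 0.10, adjusted p = 0.0021) and Lamp2 (log2FC 0.35 ± 0.10, adjusted p = 0.024) had the smallest differences of the list. Other genes overlap 33.1% of the exonic bases of Grn and 29.2% of those of Ctsz.

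Markers of disease-associated microglia, the state that microglia take on around dying neurons and plaques, were mostly high at both times. Of 20, 18 were above control at 36 h and 17 at 72 h, 6 rose between the times and none fell (median log2FC 0.73, 6 called in the ganglion-low libraries). Cst7, a cystatin that inhibits cathepsins, went from 3.11, 3 and 6.27 to 13.8, 25.1 and 21.4 CPM (log2FC 2.30 ± 0.40, adjusted p = 0.0015). Gpnmb, a transmembrane glycoprotein of phagocytes, went from 29.3, 28.8 and 17.4 to 92.4, 51.9 and 74.4 CPM (log2FC 1.55 ± 0.29, adjusted p = 0.0021). Apoe, the lipid carrier, went from 566, 474 and 824 to 1783, 1684 and 1960 CPM (log2FC 1.55 ± 0.18, adjusted p = 3.4e-05). Apoe was below control at 36 h (log2FC -1.002, adjusted p = 0.00027) and not called against it at 72 h (log2FC 0.17, adjusted p = 0.53). Trem2 (log2FC 1.33 ± 0.20, adjusted p = 0.00029), the lipid receptor of microglia, and Ctsd (log2FC 1.23 ± 0.15, adjusted p = 4.4e-05) were above control at both times. The sixth was Tyrobp, given above. Gpnmb was not called in the ganglion-low libraries (log2FC 1.36, adjusted p = 0.063). Spp1, osteopontin, was at 786, 1077 and 746 CPM at 36 h and 797, 511 and 598 at 72 h (log2FC -0.50 ± 0.39, adjusted p = 0.45), overlapping between the times. Lgals3 (log2FC 0.74 ± 0.37, adjusted p = 0.23) and Lpl (log2FC -0.98 ± 0.46, adjusted p = 0.19) did not pass either.

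Complement marks debris and synapses for removal, and all 3 chains of C1q, its first component, rose. C1qa was at 161, 149.5 and 175 CPM at 36 h and 358, 416 and 492 at 72 h (log2FC 1.38 ± 0.17, adjusted p = 3.9e-05). C1qb was at 162, 153 and 164 CPM at 36 h and 329, 394 and 441 at 72 h (log2FC 1.28 ± 0.17, adjusted p = 0.00013). C1qc was at 138, 130.1 and 147 CPM at 36 h and 295, 362 and 421 at 72 h (log2FC 1.38 ± 0.17, adjusted p = 4.4e-05). In each, every library at 72 h lay far above every library at 36 h, and both times were above control. C3, the central component, which reactive astrocytes and microglia both make, went from 2.82, 1.34 and 2.51 to 32.4, 10.6 and 17.5 CPM (log2FC 3.14 ± 0.66, adjusted p = 0.0052). C3 was not called in the ganglion-low libraries (log2FC 3.08, adjusted p = 0.10). With Itgam, which also pairs into complement receptor 3, 5 of 14 complement genes rose and none fell (4 in the ganglion-low libraries). The anaphylatoxin receptors were not called. C3ar1 held 61.9, 49.3 and 50.6 CPM at 36 h and 54.8, 42.5 and 67.8 at 72 h (log2FC 0.03 ± 0.25, adjusted p = 0.96), overlapping. C5ar1 held 30.2, 21.4 and 27.6 CPM at 36 h and 19.5, 12.9 and 16.2 at 72 h (log2FC -0.70 ± 0.34, adjusted p = 0.20). Both were far above control at 36 h (log2FC 4.73, adjusted p = 1.9e-09 and log2FC 5.19, adjusted p = 4.6e-08).

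Of 14 Fc and pattern receptor genes, 3 rose and 1 fell (median log2FC 0.49). Cd14, the coreceptor for bacterial lipid and debris, fell from 42.5, 40.3 and 70.3 to 11.6, 8.58 and 11.9 CPM (log2FC -2.28 ± 0.43, adjusted p = 0.0022), with no overlap. Fcgr2b, the inhibitory Fc receptor, rose from 26.6, 27.4 and 22.2 to 53.6, 56.7 and 68.6 CPM (log2FC 1.23 ± 0.23, adjusted p = 0.0021), and so did Fcer1g (log2FC 1.197 ± 0.21, adjusted p = 0.0012) and Tlr9 (log2FC 1.59 ± 0.38, adjusted p = 0.011), the DNA sensor. Tlr9 was low throughout and was not called with SE 36 h replicate 3 left out or in the ganglion-low libraries (log2FC 1.13 to 1.31, adjusted p = 0.071 to 0.15). Tlr2 at 31.9, 22 and 30.6 CPM at 36 h and 26.9, 31.6 and 45.6 at 72 h (log2FC 0.26 ± 0.27, adjusted p = 0.58) and Tlr4 (log2FC 0.07 ± 0.34, adjusted p = 0.92) overlapped between the times. Of 14 genes of MHC antigen presentation, 4 rose and all 14 had a positive log2FC (median 0.89). Between the controls of the same times their median log2FC was 0.84, with none of the 14 called. Their sum was 133, 122 and 123 CPM in Ctr 36 h and 158, 265 and 172 CPM in Ctr 72 h, highest in replicate 2, the library with the most ganglion markers. The SE effect differed between the times for none of the 14. B2m, the light chain of class I, went from 162, 98 and 157 to 325, 408 and 282 CPM (log2FC 1.28 ± 0.16, adjusted p = 5.8e-05), and the class I heavy chains H2-K1 (log2FC 1.53 ± 0.19, adjusted p = 4.5e-05) and H2-D1 (log2FC 1.32 ± 0.20, adjusted p = 0.0003) rose with it. So did Psmb9 (log2FC 1.68 ± 0.41, adjusted p = 0.012), an immunoproteasome subunit that was not called with SE 36 h replicate 2 left out or in the ganglion-low libraries (log2FC 1.37 to 1.44, adjusted p = 0.096 to 0.19). H2-K1 and H2-D1 are near-identical copies and also overlap other genes, so reads may be shared between them. The class II gene H2-Aa held 0.296, 0.158 and 6.5 CPM at 36 h and 7.16, 5.25 and 0.633 at 72 h (log2FC 1.09 ± 0.96, adjusted p = 0.51), high in the libraries rich in ganglion markers. Cd74, the class II chaperone, followed it at 2.15, 0.788 and 7.35 CPM at 36 h and 11.9, 10.2 and 3.85 at 72 h.

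Interferon-stimulated genes, raised at both times, did not move as a group. All 18 were above control at 36 h and all 18 at 72 h, and 1 rose. That gene was Ifi27l2a, at 1.41, 1.18 and 2.56 CPM at 36 h and 13.8, 18.3 and 9.06 at 72 h (log2FC 3.002 ± 0.49, adjusted p = 0.00072), not called in the ganglion-low libraries (log2FC 2.80, adjusted p = 0.055). Isg15, a ubiquitin-like modifier, was at 28.5, 6.54 and 17.9 CPM at 36 h and 15.5, 23.3 and 10.0 at 72 h (log2FC -0.11 ± 0.54, adjusted p = 0.93). Oasl2 was at 84.6, 11.8 and 47 CPM at 36 h and 67.8, 97.5 and 26 at 72 h (log2FC 0.35 ± 0.53, adjusted p = 0.73). In both, SE 36 h replicate 2 and SE 72 h replicate 3 were the low libraries, and the spread within each time was wider than the difference between the times. Irf7 (log2FC 0.23 ± 0.52, adjusted p = 0.83) and Ifit3 (log2FC -0.26 ± 0.48, adjusted p = 0.78) showed the same wide spread.

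Cell division genes rose at 72 h. Of 21 genes of the mitotic cell cycle, 15 rose and none fell (median log2FC 1.5), none of the 21 overlapped between the times, 18 were above control at 36 h and all 21 at 72 h. Their summed level was 203, 91.9 and 152 CPM at 36 h and 387, 430.0 and 450.0 CPM at 72 h, with SE 36 h replicate 2 lowest, against 33.9 to 38.4 CPM in Ctr 36 h. Mki67, the Ki-67 protein that stains every dividing cell (GRCm39 chr7:135291513-135318299), stood at 25.9, 10.7 and 26.3 CPM at 36 h and 59.9, 70.4 and 72 at 72 h (log2FC 1.63 ± 0.40, adjusted p = 0.013). Ccnb2, a mitotic cyclin, went from 4.45, 2.92 and 2.68 to 11.2, 12.3 and 11.4 CPM (log2FC 1.84 ± 0.32, adjusted p = 0.0014). Cdca8, a subunit of the chromosomal passenger complex, went from 3.78, 2.68 and 2.56 to 10.9, 12.2 and 11.8 CPM (log2FC 1.95 ± 0.34, adjusted p = 0.0012). Kif11, the spindle motor, went from 9.34, 4.02 and 6.67 to 17.2, 22.2 and 22.6 CPM (log2FC 1.63 ± 0.32, adjusted p = 0.0028). Foxm1, the transcription factor of the late cell cycle, was at 8.97, 6.38 and 9.69 CPM at 36 h and 20.5, 21.3 and 24.5 at 72 h (log2FC 1.40 ± 0.20, adjusted p = 0.00025). Top2a, the topoisomerase that untangles chromosomes, went from 37.2, 11.7 and 20.5 to 56.5, 62.4 and 71.5 CPM (log2FC 1.46 ± 0.40, adjusted p = 0.023). Cdk1 (log2FC 1.58 ± 0.66, adjusted p = 0.14), Ccnb1 (log2FC 1.45 ± 0.56, adjusted p = 0.11) and Aurkb (log2FC 1.44 ± 0.60, adjusted p = 0.14) had log2FC of similar size and missed the limit of p. Aurkb is a kinase of the passenger complex, and Cdk1 with Ccnb1 forms the kinase that starts mitosis. Pimreg, a mitotic regulator outside the list, rose from 1.85, 0.473 and 1.37 to 7.16, 8.3 and 8.57 CPM (log2FC 2.67 ± 0.56, adjusted p = 0.0049).

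These counts depended on low values and on 1 library. When at least 10 counts were asked of every library, which drops genes low in any one of the 24, 3 of the 21 were called, and without SE 36 h replicate 2 it was 9. Mki67 was not called with SE 36 h replicate 2 left out (log2FC 1.35, adjusted p = 0.058). Top2a was not called with SE 36 h replicates 2 or 3 or SE 72 h replicates 2 or 3 left out or in the ganglion-low libraries (log2FC 1.15 to 1.55, adjusted p = 0.058 to 0.20). Cdca8 was not called in the ganglion-low libraries (log2FC 1.87, adjusted p = 0.054). Kif11 was not called in the ganglion-low libraries (log2FC 1.76, adjusted p = 0.054). Pimreg was not called in the ganglion-low libraries (log2FC 2.85, adjusted p = 0.082). In the ganglion-low libraries 5 of the 21 were called. Of 20 DNA replication genes, 2 rose, Rrm2 and Tk1, both for making nucleotides, and 19 had a positive log2FC (median 0.57). For 14 of the 20 every 72 h library lay above every 36 h library, beside 17.3% of all tested genes. Rrm2, the ribonucleotide reductase subunit, went from 11.2, 5.44 and 9.8 to 36.8, 34.4 and 53.4 CPM (log2FC 2.19 ± 0.29, adjusted p = 9.7e-05). Tk1, thymidine kinase, went from 7.63, 3 and 5.13 to 18, 15 and 17.7 CPM (log2FC 1.68 ± 0.36, adjusted p = 0.0057). Tk1 was not called in the ganglion-low libraries (log2FC 1.76, adjusted p = 0.061). The subunits of the replicative helicase were not called. Mcm7 was within the limit of p but changed by less than the limit of size (log2FC 0.52, adjusted p = 0.025). Mcm6, the 1 gene of the list with a negative log2FC, was at 48.5, 31.8 and 33.2 CPM at 36 h and 36.7, 32.3 and 43.6 at 72 h (log2FC -0.01 ± 0.17, adjusted p = 0.99). Mcm2 was at 24.2, 18.9 and 17.4 CPM at 36 h and 22.1, 24.2 and 35.9 at 72 h (log2FC 0.44 ± 0.22, adjusted p = 0.22). Of the 20, 17 were above control at 36 h and 19 at 72 h. Other genes overlap 43.3% of Rrm2's exonic bases.

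Promoters of 3 mitotic genes are shown as examples of 2 motifs. In the 250 bases before the annotated start (RefSeq, GRCm38.p6), 8 of the 17 list members with a promoter in the table held TTTGAA or TTCGAA on either strand, the letters of the cell cycle homology region, where repressor and activator complexes take turns over the cell cycle, and 15 held CCAAT, the letters bound by NF-Y. The shares were 47.1% and 88.2%, against 12.4% and 35.6% of 12764 promoters of tested genes and 17.4% and 34.5% of all 27025 promoters in the table. All 8 also held CCAAT, so 47.1% of the 17 held both motifs, against 4.71% of the promoters of tested genes. Among all genes called higher with a promoter, 17% held the homology letters and 40.1% CCAAT, and among genes called lower 16.5% and 27.5%. The shares of the list count called and uncalled members alike, so they describe the list and not the change between the times. A match of letters is a description and not a binding site. The 120 bases before the start of Cdc20 (GRCm38.p6 chr4:118437344-118437463, minus strand), which activates the anaphase-promoting complex, of Kif11 (chr19:37376262-37376381, plus strand) and of Ube2c (chr2:164769809-164769928, plus strand), its ubiquitin-conjugating enzyme, are printed 5′ to 3′ along each gene's strand, with homology region and CCAAT letters in capitals (TTCAAA and ATTGG are their reverse complements).
Cdc20: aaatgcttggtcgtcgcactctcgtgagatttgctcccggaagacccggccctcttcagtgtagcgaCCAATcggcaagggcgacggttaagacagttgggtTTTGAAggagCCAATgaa
Kif11: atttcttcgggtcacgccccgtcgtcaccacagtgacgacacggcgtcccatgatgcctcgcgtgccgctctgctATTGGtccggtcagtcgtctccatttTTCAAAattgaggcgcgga
Ube2c: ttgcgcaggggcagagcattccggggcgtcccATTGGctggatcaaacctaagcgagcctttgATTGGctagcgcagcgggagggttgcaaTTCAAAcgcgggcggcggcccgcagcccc
These 3 were picked after their layout was seen, with both motifs close to the start. In all 3, the homology letters began between 29 and 18 bases before the start, with a CCAAT box upstream of them at 45 to 57 bases. Homology letters also lay near the start in Top2a, at 23 bases with CCAAT at 58, and in Cdk1, at 15 with CCAAT at 48. Both genes held further matches upstream. The homology letters lay farther off in Mki67, at 116 and 98 bases before the start, in Ccnb2, at 167, and in Bub1b, at 188. Cdc20 went from 4.22, 1.81 and 3.53 to 9.11, 11.3 and 8.57 CPM (log2FC 1.58 ± 0.43, adjusted p = 0.024). Ube2c went from 5.11, 2.13 and 2.79 to 10.1, 11.4 and 12.8 CPM (log2FC 1.77 ± 0.40, adjusted p = 0.0074), without overlap. Cdc20 was not called with SE 36 h replicate 2 or SE 72 h replicates 1 or 2 left out or in the ganglion-low libraries (log2FC 1.34 to 1.62, adjusted p = 0.052 to 0.22). Ube2c was not called in the ganglion-low libraries (log2FC 1.81, adjusted p = 0.11).

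**Figure D4:**
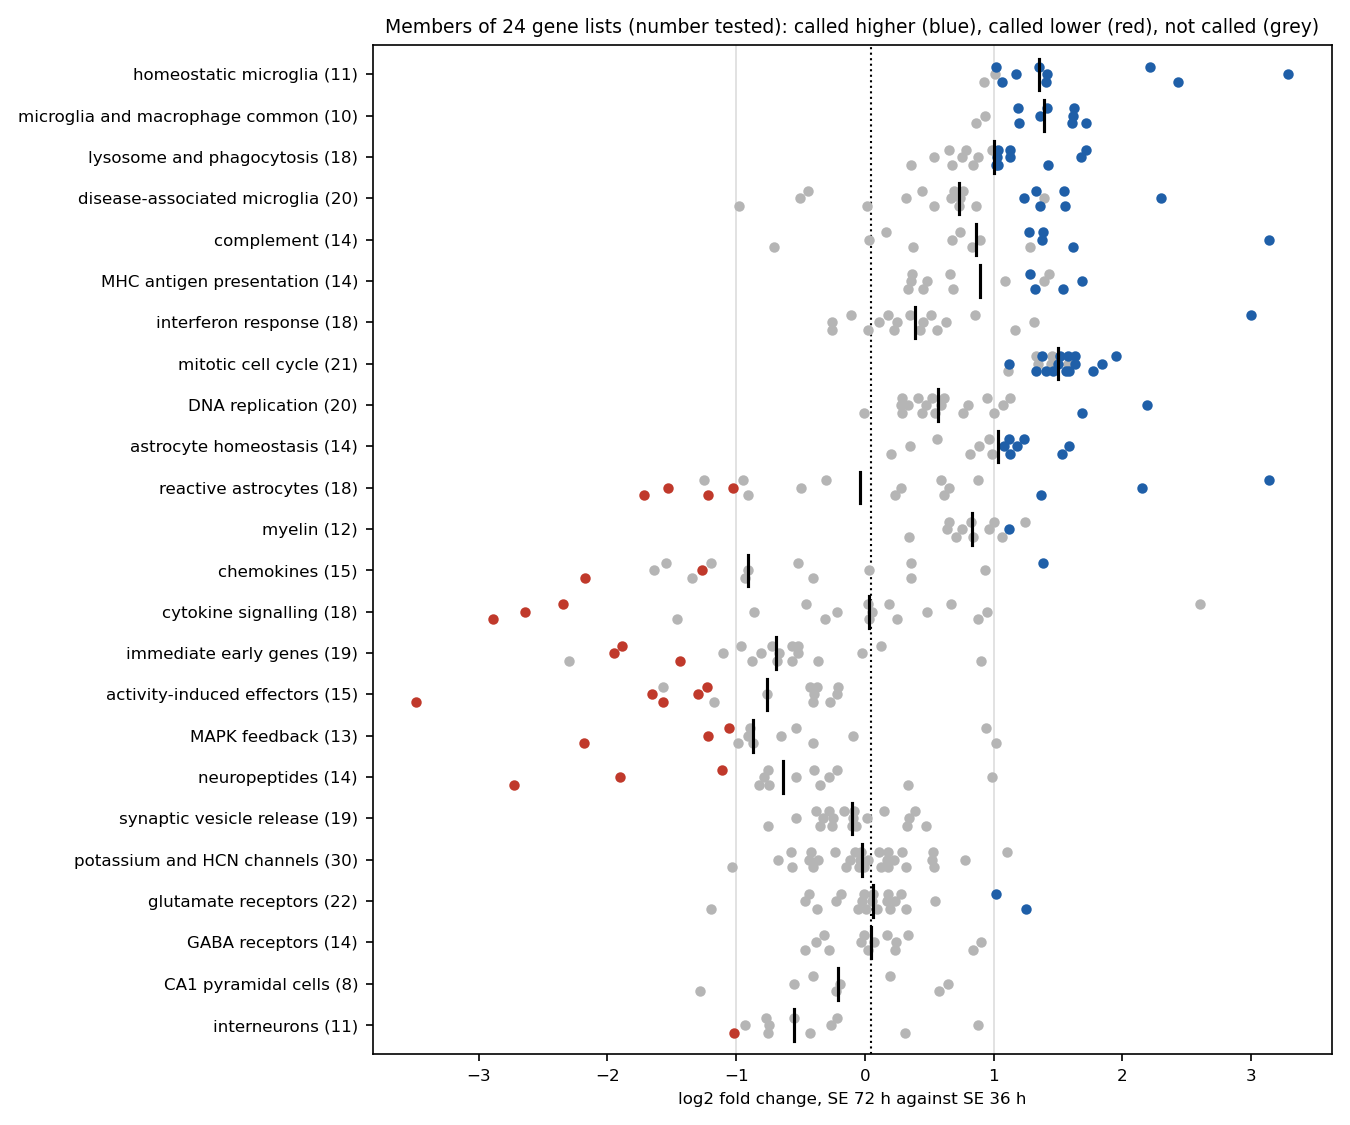
log2FC between SE 36 h and SE 72 h (horizontal axis) of each tested member of 24 gene lists (dots: blue called higher, red called lower, grey not called; black bars: list medians; dotted line: median of all genes, 0.05). Microglial, lysosomal, mitotic and astrocyte homeostasis genes lie to the right, activity-induced, MAPK feedback and chemokine genes to the left, and ion channel and receptor lists are centred near 0.

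Of 14 genes of astrocyte homeostasis, which serve uptake and metabolism in the resting brain, 7 rose, none fell and all 14 had a positive log2FC (median 1.03), with 8 called in the ganglion-low libraries, while 6 were below and 4 above control at 36 h and 7 above and none below at 72 h. Their median log2FC against control was -0.55 at 36 h and 0.69 at 72 h. Aldoc, the aldolase of astrocytes (GRCm39 chr11:78213619-78218889), stood at 399.5, 227 and 349 CPM at 36 h and 1016, 911 and 997 at 72 h (log2FC 1.58 ± 0.19, adjusted p = 3.3e-05). Control libraries held 997, 912 and 903 CPM in Ctr 36 h and 1030, 1087 and 1013 CPM in Ctr 72 h, with the SE 72 h libraries among them and the SE 36 h libraries far below. Gja1, the gap junction protein connexin 43, went from 140.2, 106 and 112 to 432, 329 and 266 CPM (log2FC 1.53 ± 0.21, adjusted p = 0.00013). Glul, glutamine synthetase, went from 848, 821 and 754 to 1799, 1655 and 1843 CPM (log2FC 1.13 ± 0.17, adjusted p = 0.00029). The glutamate transporter Slc1a3 went from 559, 409 and 487 to 1092, 930.0 and 1142 CPM (log2FC 1.12 ± 0.17, adjusted p = 0.00029). For these 3 the values against Ctr at 36 h were log2FC -1.32, adjusted p = 6.2e-05 for Gja1, log2FC -0.90, adjusted p = 0.00038 for Glul and log2FC -0.72, adjusted p = 0.0022 for Slc1a3. Slc1a2, the main glutamate transporter of the forebrain, went from 1265, 1137 and 1044 to 2170, 2192 and 1988 CPM (log2FC 0.88 ± 0.13, adjusted p = 0.00028), under the limit of size. It was below control at 36 h (log2FC -1.30, adjusted p = 3.6e-07) but not by the test at 72 h (log2FC -0.29, adjusted p = 0.11).

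Some members of the list were not called below control at either time. Atp1b2, the astrocyte sodium pump subunit, rose from 851, 524 and 744 to 1727, 1555 and 1521 CPM (log2FC 1.18 ± 0.19, adjusted p = 0.00048). Aldh1l1, a folate enzyme, went from 162, 96.1 and 116 to 212, 244 and 336 CPM (log2FC 1.08 ± 0.21, adjusted p = 0.0027). Aldh1l1 was above control at both times (log2FC 1.38, adjusted p = 5.5e-05 and log2FC 2.13, adjusted p = 5.4e-07). Gjb6, connexin 30, rose to 128, 86.6 and 74.2 CPM (log2FC 1.23 ± 0.31, adjusted p = 0.015). Aldh1l1 was not called with SE 36 h replicate 2 or SE 72 h replicate 3 left out (log2FC 0.87 to 0.92, adjusted p = 0.019 to 0.027). Gjb6 was not called with SE 36 h replicate 2 or SE 72 h replicate 1 left out or in the ganglion-low libraries (log2FC 0.86 to 1.05, adjusted p = 0.081 to 0.12). Aqp4, the water channel of the endfeet, held 519.6, 479 and 480.2 CPM at 36 h and 628, 846 and 404 at 72 h (log2FC 0.35 ± 0.22, adjusted p = 0.35), overlapping.

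Reactive astrocyte genes moved both ways, with 3 of 18 higher, 4 lower and a median log2FC of -0.04, and 17 were above control at each time. Without the factor for unwanted variation (RUVr) 1 was called higher and 1 lower. The intermediate filament genes were not called. Gfap was at 6058, 4109 and 5829 CPM at 36 h and 7078, 8779 and 8594 at 72 h (log2FC 0.61 ± 0.22, adjusted p = 0.087). Vim was at 1406, 1276 and 1314 CPM at 36 h and 2132, 1879 and 3228 at 72 h (log2FC 0.88 ± 0.25, adjusted p = 0.031) and Nes had the opposite sign (log2FC -0.50, adjusted p = 0.33). Controls held 309, 252 and 245 CPM in Ctr 36 h and 290.1, 256 and 217 CPM in Ctr 72 h of Gfap. Tnc, the matrix protein tenascin C, fell from 88.8, 176 and 149.6 to 50.8, 39.9 and 34.5 CPM (log2FC -1.72 ± 0.36, adjusted p = 0.0054). Emp1, a membrane protein, went from 57.7, 149 and 56.6 to 28.8, 23.8 and 39.5 CPM (log2FC -1.53 ± 0.46, adjusted p = 0.04). The chaperone Hspb1 went from 133, 172 and 117 to 97, 43.5 and 51.3 CPM (log2FC -1.22 ± 0.34, adjusted p = 0.026). Cd44, the hyaluronan receptor, fell from 303, 356 and 303 to 139.6, 152 and 180.3 CPM (log2FC -1.02 ± 0.31, adjusted p = 0.041). C3 rose, as given above. Lcn2, the iron-binding lipocalin, held 23.6, 25.2 and 16.9 CPM at 36 h and 92.5, 43.6 and 32 at 72 h (log2FC 1.37 ± 0.43, adjusted p = 0.049). Steap4, a metalloreductase, held 0.593, 0.552 and 2.73 CPM at 36 h and 9.76, 5.25 and 2 at 72 h (log2FC 2.15 ± 0.57, adjusted p = 0.021), with overlap. Of these, Tnc was called without each of the 6 libraries in turn. Emp1 was not called with SE 36 h replicate 2 or SE 72 h replicates 1 or 2 left out or in the ganglion-low libraries (log2FC -0.88 to -1.48, adjusted p = 0.084 to 0.29). Hspb1 was not called with SE 36 h replicate 2 or SE 72 h replicates 2 or 3 left out (log2FC -1.02 to -1.08, adjusted p = 0.1 to 0.12). Cd44 was not called with any one SE 36 h library or SE 72 h replicates 1 or 2 left out or in the ganglion-low libraries (log2FC -0.87 to -1.08, adjusted p = 0.063 to 0.22). Lcn2 was not called with any one SE 36 h library or SE 72 h replicates 1 or 2 left out or in the ganglion-low libraries (log2FC 0.39 to 1.52, adjusted p = 0.065 to 0.73). Steap4 was not called with SE 36 h replicates 1 or 2 or SE 72 h replicate 1 left out or in the ganglion-low libraries (log2FC 1.60 to 1.799, adjusted p = 0.098 to 0.30). Without SE 36 h replicate 2, 1 of the 18 was called higher and 1 lower, and without SE 72 h replicate 1 it was 1 and 2.

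**Figure D5:**
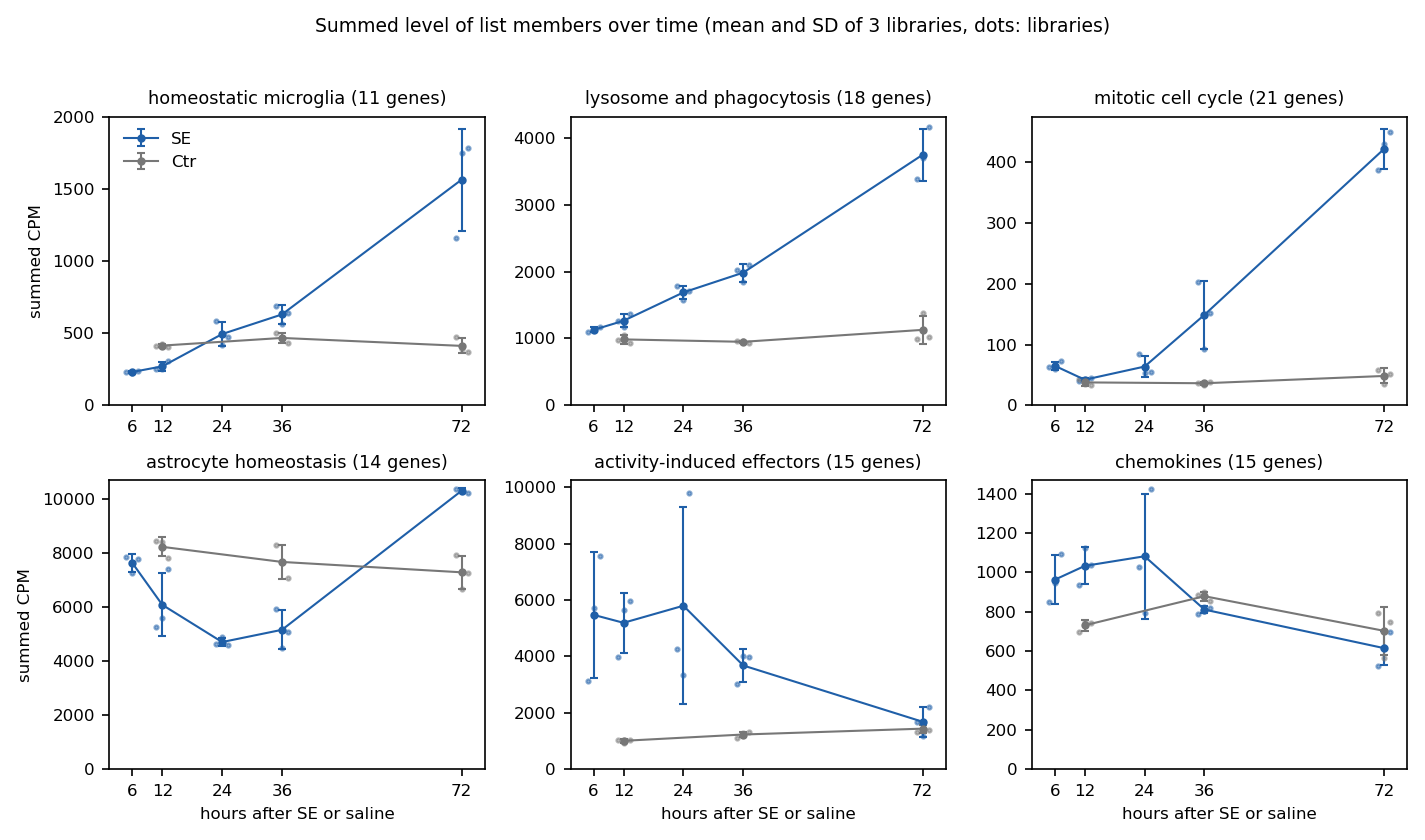
Summed CPM (vertical axis) of the tested members of 6 gene lists against hours after SE or saline (horizontal axis), with means and SD of 3 libraries (lines and bars) and single libraries (dots) for SE (blue) and Ctr (grey). Between 36 and 72 h the homeostatic microglia sum moves from a range of 562 to 689 CPM to one of 1157 to 1784 CPM and the astrocyte homeostasis sum from 4479 to 5929 CPM up to 10215 to 10389 CPM, while the activity-induced effectors move from 3018 to 4022 CPM down to 1166 to 2210 CPM.

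Several secreted signals, and an enzyme that makes one, that were above control at 36 h fell. Inhba, which encodes the activin A subunit that neurons release after strong activity (GRCm39 chr13:16186373-16206206), fell from 232, 580.1 and 401 to 12.3, 18.7 and 75.6 CPM (log2FC -3.48 ± 0.63, adjusted p = 0.0017). Controls held 7.48, 9.71 and 12.7 CPM in Ctr 36 h and 6.58, 16.7 and 18 CPM in Ctr 72 h. SE 72 h replicate 3 stayed well above the other 72 h libraries and still under every 36 h library. Ptgs2, the cyclooxygenase that makes prostaglandins in activated neurons, fell from 120.2, 238 and 157 to 28.1, 17.6 and 36.4 CPM (log2FC -2.64 ± 0.64, adjusted p = 0.012). It was above control at 36 h (log2FC 4.36, adjusted p = 8.7e-05) but not by the test at 72 h (log2FC 0.89, adjusted p = 0.35). Lif, an interleukin-6 family cytokine, fell from 33.9, 91.9 and 79.2 to 6.51, 17.8 and 15.3 CPM (log2FC -2.35 ± 0.39, adjusted p = 0.00077). Il11, of the same family, went from 3.56, 17.8 and 5.81 to 0.71, 0.572 and 2.19 CPM (log2FC -2.89 ± 0.65, adjusted p = 0.0075). Lif was above control at 72 h too (log2FC 4.11, adjusted p = 6.3e-05). Ptgs2 was not called with SE 36 h replicate 2 or SE 72 h replicate 2 left out or in the ganglion-low libraries (log2FC -2.27 to -2.41, adjusted p = 0.06 to 0.24). Il11 was not called with SE 36 h replicate 2 left out or in the ganglion-low libraries (log2FC -1.997 to -2.21, adjusted p = 0.069 to 0.089).

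Genes with synaptic and peptide roles fell too. Cbln4, a synaptic organiser, fell from 72.1, 92.8 and 41.5 to 5.44, 7.44 and 17.1 CPM (log2FC -2.78 ± 0.51, adjusted p = 0.0018). Cbln1, its relative, went from 33.4, 90.8 and 14.4 to 1.77, 2.86 and 6.77 CPM (log2FC -3.53 ± 0.85, adjusted p = 0.012), with SE 36 h replicate 2 highest in both. Crh, the stress peptide corticotropin-releasing hormone, fell from 13.8, 8.59 and 1.77 to 1.01, 1.05 and 0.877 CPM (log2FC -2.73 ± 0.43, adjusted p = 0.00054). Syt10, a synaptotagmin of secretory vesicles, fell from 5.11, 16.9 and 1.37 to 1.12, 0.286 and 1.27 CPM (log2FC -2.97 ± 0.78, adjusted p = 0.02). Gipr, an incretin receptor, went from 26.2, 78.9 and 20.8 to 4.44, 5.53 and 11.1 CPM (log2FC -2.55 ± 0.54, adjusted p = 0.0054). Fndc9 (log2FC -3.59 ± 0.54, adjusted p = 0.0003), Ankrd34c (log2FC -2.91 ± 0.58, adjusted p = 0.0032) and the Wnt ligand Wnt9b (log2FC -3.56 ± 0.78, adjusted p = 0.0065) fell too. The keratin gene Krt75 had the most negative log2FC of the ranking, at 13, 57.5 and 13.7 CPM at 36 h and 0.532, 0.763 and 1.22 at 72 h (log2FC -4.99 ± 0.74, adjusted p = 0.00028), where 1 library held most of the 36 h level. The methyltransferase Inmt (log2FC -2.85 ± 0.60, adjusted p = 0.0052), the myeloid receptor Cd300lb (log2FC -2.98 ± 0.48, adjusted p = 0.0012) and Lyve1 (log2FC -3.06 ± 0.59, adjusted p = 0.0026), a marker of border macrophages and lymphatic vessels, complete the ranking. Cbln1 was not called with SE 36 h replicate 2 or SE 72 h replicates 1 or 2 left out or in the ganglion-low libraries (log2FC -2.64 to -3.42, adjusted p = 0.0501 to 0.096). Syt10 was not called with SE 36 h replicate 2 or SE 72 h replicates 1 or 2 left out or in the ganglion-low libraries (log2FC -1.73 to -3.14, adjusted p = 0.051 to 0.21). Gipr was not called with SE 36 h replicate 2 left out (log2FC -1.74, adjusted p = 0.061). Cbln4 was not called in the ganglion-low libraries (log2FC -2.27, adjusted p = 0.074). Wnt9b was not called in the ganglion-low libraries (log2FC -2.79, adjusted p = 0.18). Other genes overlap 40.8% of the exonic bases of Fndc9.

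Of 15 activity-induced effectors, 5 fell, none rose and all 15 had a negative log2FC (median -0.76), with 1 called in the ganglion-low libraries. Of these, 9 were above control at 36 h and none at 72 h. Beside Inhba, Vgf, a neuropeptide precursor, fell from 1297, 1269 and 1015 to 246, 236 and 670.5 CPM (log2FC -1.66 ± 0.32, adjusted p = 0.0027), with SE 72 h replicate 3 highest at that time. Bdnf, the growth factor of active neurons, fell from 93.3, 234 and 139 to 51.2, 28.7 and 76.4 CPM (log2FC -1.57 ± 0.48, adjusted p = 0.043). Sik1, a kinase that restrains CREB signalling, went from 40.2, 41 and 30.5 to 17.6, 9.73 and 17.4 CPM (log2FC -1.30 ± 0.33, adjusted p = 0.017). The stress gene Gadd45b went from 31.1, 42.4 and 53.9 to 13, 13 and 28.8 CPM (log2FC -1.22 ± 0.35, adjusted p = 0.032). Bdnf was not called with SE 36 h replicates 2 or 3 or SE 72 h replicates 1 or 2 left out or in the ganglion-low libraries (log2FC -1.04 to -1.64, adjusted p = 0.059 to 0.23). Sik1 was not called with SE 36 h replicate 2 or SE 72 h replicate 2 left out or in the ganglion-low libraries (log2FC -1.08 to -1.22, adjusted p = 0.069 to 0.083). Gadd45b was not called with SE 36 h replicates 2 or 3 or SE 72 h replicates 1 or 2 left out or in the ganglion-low libraries (log2FC -0.34 to -1.23, adjusted p = 0.088 to 0.59). Vgf was not called in the ganglion-low libraries (log2FC -0.94, adjusted p = 0.084). Leaving out SE 36 h replicate 2 gave 2 calls of 15, and so did leaving out SE 72 h replicate 2, while SE 36 h replicate 3 or SE 72 h replicate 1 left out gave 3. Nptx2, a pentraxin that clusters glutamate receptors, went from 259, 376 and 685 to 84.9, 56.9 and 279.8 CPM (log2FC -1.57 ± 0.58, adjusted p = 0.092). Homer1, a scaffold of the postsynaptic density, went from 238, 163 and 400.3 to 52.1, 104 and 202 CPM (log2FC -1.17 ± 0.54, adjusted p = 0.18), both overlapping between the times.

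Immediate early genes, the transcription factors and effectors switched on within minutes of firing, were above control in 5 of 19 cases at 36 h and in 1 at 72 h. Of the 19, 3 fell, none rose and 17 had a negative log2FC (median -0.69), while none was called with SE 36 h replicate 2 left out and 1 with SE 72 h replicate 1 or 2 left out. Arc, which regulates glutamate receptor uptake, fell from 305, 300.3 and 364 to 40.8, 69.9 and 144 CPM (log2FC -1.95 ± 0.53, adjusted p = 0.022), to a level below control at 72 h (log2FC -1.54, adjusted p = 0.033). Arc was not called with SE 36 h replicate 2 or SE 72 h replicates 1 or 2 left out or in the ganglion-low libraries (log2FC -1.07 to -2.004, adjusted p = 0.057 to 0.15). Ier3 (log2FC -1.44 ± 0.33, adjusted p = 0.0089) and Fosl1 (log2FC -1.89 ± 0.52, adjusted p = 0.025) were the others. Ier3 was not called with SE 36 h replicate 2 left out (log2FC -1.21, adjusted p = 0.062). Fosl1 was not called with SE 36 h replicate 2 or SE 72 h replicates 1 or 2 left out or in the ganglion-low libraries (log2FC -1.17 to -1.71, adjusted p = 0.098 to 0.26), and both share exonic bases with other genes (34.8% and 69.1%). Fos was at 48, 58.7 and 79.9 CPM at 36 h and 28.8, 28.3 and 58 at 72 h (log2FC -0.72 ± 0.59, adjusted p = 0.48). Egr1 was at 148, 174 and 380.5 CPM at 36 h and 81.8, 82 and 209.8 at 72 h (log2FC -0.96 ± 0.59, adjusted p = 0.33). Npas4 was at 13.8, 19.7 and 32.1 CPM at 36 h and 9.47, 6.39 and 21.7 at 72 h (log2FC -0.81 ± 0.81, adjusted p = 0.58), all overlapping. In the ganglion-low libraries their log2FC had the other sign, at 0.13 for Fos, 0.39 for Egr1 and 0.40 for Npas4, and none was called.

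Of 13 feedback genes of the MAPK pathway 3 fell, with a median log2FC of -0.87 and 6 lower at an adjusted p of at most 0.05. Of the 13, 7 were above control at 36 h and 2 at 72 h. Dusp4, a nuclear phosphatase of ERK, fell from 45.4, 80.2 and 51.8 to 10.9, 9.63 and 18.4 CPM (log2FC -2.18 ± 0.47, adjusted p = 0.0057). Of the Spred adaptors, which block Ras, Spred3 fell from 239.6, 225 and 166 to 58.2, 95.4 and 118 CPM (log2FC -1.22 ± 0.19, adjusted p = 0.0004). Spred2 went from 225, 212 and 252 to 81.5, 111 and 139 CPM (log2FC -1.06 ± 0.19, adjusted p = 0.0014). Spred1 was at 472, 522 and 438 CPM at 36 h and 227, 256 and 289 at 72 h (log2FC -0.89 ± 0.15, adjusted p = 0.0012), without overlap and under the limit of size. Spred3 was not called with SE 72 h replicate 1 left out or in the ganglion-low libraries (log2FC -0.97, adjusted p = 0.0019 to 0.011). Spred2 was not called with SE 36 h replicate 3 or SE 72 h replicate 1 left out or in the ganglion-low libraries (log2FC -0.66 to -0.99, adjusted p = 0.0059 to 0.10). Dusp4 was not called in the ganglion-low libraries (log2FC -1.75, adjusted p = 0.17). Leaving out SE 72 h replicate 1 gave 1 lower call of 13, and leaving out SE 72 h replicate 3 gave 5.

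The AP-1 motif is shown for 2 of the genes that fell, Lif and Emp1. TGACTCA or TGAGTCA, the letters bound by Fos and Jun dimers, stood within 250 bases before the start of 10 of 109 genes called lower with a promoter in the table (9.17%), 12 of 424 called higher (2.83%), 3.17% of 12764 promoters of tested genes and 4.43% of all promoters. The 240 bases before Lif (GRCm38.p6 chr11:4257328-4257567, plus strand) and the 150 before Emp1 (GRCm38.p6 chr6:135362781-135362930, plus strand) are printed along each gene's strand, AP-1 letters in capitals.
Lif: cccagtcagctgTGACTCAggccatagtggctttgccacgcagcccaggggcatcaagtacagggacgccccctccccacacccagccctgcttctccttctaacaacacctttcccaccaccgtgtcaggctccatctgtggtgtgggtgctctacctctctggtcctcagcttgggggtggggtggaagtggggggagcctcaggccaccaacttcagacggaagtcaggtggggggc
Emp1: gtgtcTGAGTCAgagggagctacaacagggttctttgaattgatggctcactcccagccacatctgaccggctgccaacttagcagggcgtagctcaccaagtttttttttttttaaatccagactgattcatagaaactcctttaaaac
The match began 228 bases before the start in Lif and 145 in Emp1. None of the 14 immediate early genes with a promoter in the table held these letters in the window.

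Neuropeptides fell in 3 of 14 cases (median log2FC -0.64) and rose in none. Scg2, a granin of secretory vesicles, fell from 932, 1528 and 808 to 402, 208 and 270.1 CPM (log2FC -1.91 ± 0.36, adjusted p = 0.0024). Cck, cholecystokinin, went from 148, 183 and 208 to 55.3, 60.1 and 134 CPM (log2FC -1.11 ± 0.25, adjusted p = 0.0068), and Crh is given above. Cck was below control at 72 h (log2FC -1.23, adjusted p = 0.00095) and not by the test at 36 h (log2FC -0.21, adjusted p = 0.55), with SE 72 h replicate 3 nearest to the 36 h libraries. Cck was not called with SE 36 h replicate 3 or SE 72 h replicates 1 or 2 left out or in the ganglion-low libraries (log2FC -0.30 to -0.996, adjusted p = 0.025 to 0.45). Npy, which dampens excitatory release, was above control at both times (log2FC 2.91, adjusted p = 2.5e-07 and log2FC 1.70, adjusted p = 0.00014). It held 232, 176 and 233 CPM at 36 h and 113, 124 and 147 at 72 h (log2FC -0.75 ± 0.26, adjusted p = 0.077).

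Chemokines went both ways, 1 of 15 higher and 2 lower (median log2FC -0.91), 11 being above control at 36 h and 10 at 72 h. Ccl4, which draws monocytes and T cells, fell from 19.4, 10.2 and 18.1 to 3.73, 2.77 and 4.09 CPM (log2FC -2.18 ± 0.42, adjusted p = 0.0026). Ccl9 went from 17.7, 24.2 and 17.7 to 9.94, 7.15 and 6.82 CPM (log2FC -1.27 ± 0.31, adjusted p = 0.012). Ccl9 was not called with SE 36 h replicate 2 or SE 72 h replicate 2 left out (log2FC -1.12 to -1.19, adjusted p = 0.053 to 0.075). Ccl4 was not called in the ganglion-low libraries (log2FC -1.87, adjusted p = 0.079). Cxcl14, a chemokine of astrocytes and neurons, rose from 31.9, 35.2 and 35.6 to 88.5, 92.3 and 87.5 CPM (log2FC 1.38 ± 0.14, adjusted p = 7e-06). It moved from below control (log2FC -1.15, adjusted p = 3.5e-06) to a level not called against it (log2FC 0.29, adjusted p = 0.13), with the 3 libraries at each time close together. Cxcl10 at 45.9, 16.4 and 34.2 CPM at 36 h and 16.1, 9.44 and 7.5 at 72 h (log2FC -1.64 ± 0.53, adjusted p = 0.058). Ccl2 was at 16.2, 5.99 and 13.7 CPM at 36 h and 4.5, 6.2 and 4.87 at 72 h (log2FC -1.19 ± 0.46, adjusted p = 0.10) did not pass, with SE 36 h replicate 2 the low library of its group in both. The Ccl genes are close relatives in a cluster, so their reads may be shared. Of 18 cytokine signalling genes, 3 fell, Il11, Lif and Ptgs2, and none rose, while 13 were above control at each time and 1 was called lower without SE 36 h replicate 2. Socs3, the feedback inhibitor of STAT3, held 82.4, 80.0 and 56.3 CPM at 36 h and 42.7, 48.6 and 67.7 at 72 h (log2FC -0.46 ± 0.39, adjusted p = 0.50), and Il1b at most 0.682 CPM in any of the 6 libraries.

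Of 12 myelin genes, 1 rose and all 12 had a positive log2FC (median 0.83), and their libraries overlapped for 11. Mbp, a main protein of central myelin, held 692, 875 and 1256 CPM at 36 h and 1008, 2237 and 1875 at 72 h (log2FC 0.84 ± 0.32, adjusted p = 0.099), with SE 72 h replicate 1 low in its group. The 1 gene called was Cnp, from 144, 129.7 and 179 to 211, 409 and 370.4 CPM (log2FC 1.12 ± 0.26, adjusted p = 0.0097). Cnp was not called with SE 36 h replicate 2 or SE 72 h replicate 2 left out (log2FC 0.93 to 1.02, adjusted p = 0.052 to 0.059). Without SE 72 h replicate 1 the count was 6 of 12, without SE 36 h replicate 3 it was 4, and in the ganglion-low libraries 10. Gpr17, the receptor of committed oligodendrocyte precursors, went from 18.1, 38.5 and 24.8 to 69.5, 74.3 and 51.2 CPM (log2FC 1.28 ± 0.30, adjusted p = 0.011), the 1 precursor gene of 11 to rise. It moved from below control (log2FC -1.79, adjusted p = 0.00014) to a level not called against it (log2FC 0.29, adjusted p = 0.52). Gpr17 was not called in the ganglion-low libraries (log2FC 0.87, adjusted p = 0.18). Pdgfra, the growth factor receptor of early precursors, was at 74.1, 77.6 and 63.8 CPM at 36 h and 90, 95.1 and 99.97 at 72 h (log2FC 0.40 ± 0.15, adjusted p = 0.11).

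Matrix enzymes and their inhibitors moved both ways, 2 of 16 higher and 2 lower. Mmp2, a gelatinase, rose from 1.85, 1.58 and 4.33 to 7.99, 13.9 and 7.06 CPM (log2FC 1.94 ± 0.38, adjusted p = 0.0027). Timp4, an inhibitor of metalloproteases, went from 51.5, 34.8 and 47.9 to 135, 93.9 and 112 CPM (log2FC 1.35 ± 0.21, adjusted p = 0.00048). Adamts1, a protease of proteoglycans, fell from 202, 234 and 153 to 41.5, 68 and 52.8 CPM (log2FC -1.86 ± 0.31, adjusted p = 0.00076). Other genes overlap 24.3% of Mmp2's exonic bases. Timp1, at 164, 168 and 139 CPM at 36 h and 85.9, 63.8 and 95.7 at 72 h (log2FC -0.94 ± 0.28, adjusted p = 0.037), was under the limit of size and far above control at both times. None of 13 collagens and matrix genes, 12 endothelial and mural markers or 10 fibroblast markers was called. Of the 12 endothelial and mural markers, 8 had a negative log2FC and 4 a positive one (median -0.19). The highest was Cldn5, a tight junction protein of brain vessels, at 59.5, 31.2 and 40.5 CPM at 36 h and 64.8, 74.5 and 58.7 at 72 h (log2FC 0.60 ± 0.21, adjusted p = 0.076). Pecam1 (log2FC -0.57, adjusted p = 0.061) and Kdr (log2FC -0.67, adjusted p = 0.19) had the opposite sign.

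Stress genes gave few calls. Atf4, the transcription factor of the integrated stress response, fell from 152, 226 and 172 to 84, 88.4 and 81.2 CPM (log2FC -1.12 ± 0.17, adjusted p = 0.00029), the 1 gene called of 15 in that response. It moved from above control (log2FC 1.07, adjusted p = 5.8e-05) to a level not called against it (log2FC -0.18, adjusted p = 0.46). Atf4 was not called with SE 36 h replicate 2 left out (log2FC -0.94, adjusted p = 0.0038). Its target Asns, asparagine synthetase, was at 80.2, 154 and 89.6 CPM at 36 h and 70.7, 75.2 and 46.9 at 72 h (log2FC -0.76 ± 0.19, adjusted p = 0.015). Nqo1, an antioxidant enzyme, rose from 1.26, 1.02 and 2.39 to 4.62, 4.77 and 5.85 CPM (log2FC 1.72 ± 0.47, adjusted p = 0.025), the 1 gene of 13 in the metallothionein and NRF2 list. Nqo1 was not called with SE 36 h replicates 1 or 2 or SE 72 h replicates 2 or 3 left out (log2FC 1.495 to 1.77, adjusted p = 0.0503 to 0.13). Srxn1, sulfiredoxin, had the opposite sign at 269.9, 309 and 236 CPM at 36 h and 173, 127 and 132 at 72 h (log2FC -0.93 ± 0.20, adjusted p = 0.007). Hmox1, heme oxygenase, was at 21.5, 29.6 and 20.9 CPM at 36 h and 30.9, 25.8 and 27 at 72 h (log2FC 0.22 ± 0.30, adjusted p = 0.69). Hspb1 was the 1 heat shock chaperone of 11 called, and none of 12 p53 targets was. Of 10 glucocorticoid response genes, the sulfotransferase Sult1a1 rose from 2.15, 1.34 and 4.62 to 24.9, 7.82 and 7.7 CPM (log2FC 2.29 ± 0.64, adjusted p = 0.026), led by SE 72 h replicate 1. Sult1a1 was not called with SE 36 h replicates 1 or 2 or SE 72 h replicate 1 left out (log2FC 1.52 to 2.15, adjusted p = 0.085 to 0.18). Tsc22d3, the textbook glucocorticoid target, overlapped at 41.6, 26.8 and 62.8 CPM at 36 h and 152, 62.6 and 40.3 at 72 h (log2FC 0.95 ± 0.39, adjusted p = 0.13).

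Clock output genes, which the circadian clock drives through D-box and E-box letters, were mostly below control at 36 h. Of 11, 10 were below control at 36 h and none above, and at 72 h 3 were below and 1 above, with 2 called higher between the SE times. Hlf, a D-box transcription factor, rose from 32.9, 27.9 and 21.6 to 54, 95.8 and 67.4 CPM (log2FC 1.40 ± 0.28, adjusted p = 0.0031). Per3, a period protein, went from 20.4, 13.2 and 19.1 to 44.4, 43.1 and 34.6 CPM (log2FC 1.21 ± 0.19, adjusted p = 0.00043). Hlf was not called in the ganglion-low libraries (log2FC 1.15, adjusted p = 0.13). In the controls, Per3 had the other sign, at 71.3, 68.8 and 62 CPM in Ctr 36 h and 41.3, 34.6 and 32.6 CPM in Ctr 72 h (log2FC -0.89 ± 0.19, adjusted p = 0.019), and the SE effect on it differed between the times (difference 2.09 ± 0.27, adjusted p = 0.00036). Tef was at 177, 143 and 168 CPM at 36 h and 291, 303 and 217 at 72 h (log2FC 0.73 ± 0.14, adjusted p = 0.0027). Per1 was at 81.6, 80.3 and 100.6 CPM at 36 h and 112, 70.4 and 91.1 at 72 h (log2FC 0.06 ± 0.26, adjusted p = 0.92). Bmal1, a clock activator that peaks in antiphase, was at 32.3, 40.7 and 21 CPM at 36 h and 20.6, 19.8 and 24.9 at 72 h (log2FC -0.51 ± 0.19, adjusted p = 0.086), and none of the 5 antiphase genes was called. Per3 is shown because its 250 bases before the start (GRCm38.p6 chr4:151044666-151044915, minus strand) hold the D-box letters TTATGTAA, in capitals, at 205 and 158 bases before the start. TTATGTAA or TTACGTAA was in 0.721% of the promoters of tested genes, 0.943% of those of genes called higher and 0.917% of those of genes called lower. Per3 was the 1 clock output gene, of 10 with a promoter in the table, that held these letters.
Per3: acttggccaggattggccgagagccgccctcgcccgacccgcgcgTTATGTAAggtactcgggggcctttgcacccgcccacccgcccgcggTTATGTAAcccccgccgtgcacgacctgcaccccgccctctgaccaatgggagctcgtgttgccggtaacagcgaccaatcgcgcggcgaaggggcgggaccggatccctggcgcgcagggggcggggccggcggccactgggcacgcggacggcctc
Of the 10 list members with a promoter in the table, 4 held the E-box letters CACGTG, against 7.94% of the promoters of tested genes.

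Genes of neuronal excitability were often below control at 36 h and gave few calls between the times. None of 30 potassium and HCN channel genes was called (median log2FC -0.02), nor any of 18 sodium and calcium channel genes (-0.06), 14 GABA receptor genes (0.05) or 19 genes of vesicle release (-0.10). The number below control was 10 of 30 potassium and HCN channels at 36 h and 3 at 72 h, 10 and 4 of 14 GABA receptors, 13 and 4 of 22 glutamate receptors, and 5 and 7 of 19 vesicle release genes. The median log2FC against control moved little for the potassium and HCN channels, from -0.47 at 36 h to -0.42 at 72 h. It was -0.80 and -0.41 for GABA receptors, -0.78 and -0.33 for glutamate receptors and -0.47 and -0.55 for vesicle release. Between the controls themselves the medians were -0.13, -0.23, -0.17 and -0.08 in the same order. The SE effect itself differed between the times, by being higher at 72 h, for 1 gene of each of the first 3 lists and none of the last. Of the 30 potassium and HCN channel genes, 14 had a positive log2FC and 16 a negative one. The lowest was that of Kcna4, an A-type channel, at 29.8, 49.9 and 35.2 CPM at 36 h and 20.3, 16.1 and 19.5 at 72 h (log2FC -1.03 ± 0.37, adjusted p = 0.081). The highest was that of Kcnip2, which the study names among its changed ion channel genes (log2FC 1.105, adjusted p = 0.11). The libraries of the SE times did not overlap for either gene. Of the 22 glutamate receptor genes 2 rose. Grin2c went from 38.9, 15.1 and 27.6 to 59.2, 79.1 and 56.7 CPM (log2FC 1.25 ± 0.25, adjusted p = 0.0034). Grm3 went from 42.3, 18.1 and 37.1 to 36.5, 69.9 and 96.3 CPM (log2FC 1.02 ± 0.29, adjusted p = 0.027), which overlapped. Grin2c was not called with SE 36 h replicate 2 left out or in the ganglion-low libraries (log2FC 0.97 to 1.08, adjusted p = 0.017 to 0.09). Grm3 was not called with SE 36 h replicate 2 or SE 72 h replicates 2 or 3 left out (log2FC 0.69 to 0.98, adjusted p = 0.076 to 0.17).

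Markers of cell types other than glia gave few calls. None of 12 neuron markers was called (median log2FC -0.13), Rbfox3, the nuclear protein stained as NeuN, being at 185, 213 and 218 CPM at 36 h and 195, 179.5 and 186 at 72 h (log2FC -0.13 ± 0.16, adjusted p = 0.65). Snap25, of the release machinery, was at 1982, 2223 and 2071 CPM at 36 h and 1324, 1529 and 1646 at 72 h (log2FC -0.48 ± 0.15, adjusted p = 0.0499). Nefm, a neurofilament shared with peripheral neurons, was at 730.5, 1164 and 1040 CPM at 36 h and 836, 407 and 189 at 72 h. Of 11 interneuron markers, Reln, a secreted glycoprotein, fell from 83.1, 66.4 and 75 to 38.3, 33.7 and 38.7 CPM (log2FC -1.02 ± 0.24, adjusted p = 0.011), and 4 had an adjusted p of at most 0.05, all downward. Reln was not called with SE 36 h replicate 1 or SE 72 h replicate 2 left out or in the ganglion-low libraries (log2FC -0.94 to -0.96, adjusted p = 0.038 to 0.051), and without SE 72 h replicate 3, 3 of the 11 were called lower. Gad2, an enzyme of GABA synthesis, was at 187, 198 and 145 CPM at 36 h and 73.4, 84.9 and 119.7 at 72 h (log2FC -0.93 ± 0.15, adjusted p = 0.00068). None of 8 CA1 or 7 CA3 pyramidal markers was called. The 1 dentate marker called, Stxbp6, held 24.3, 22.2 and 21.1 CPM at 36 h and 76.5, 22.9 and 36.7 at 72 h (log2FC 1.02 ± 0.26, adjusted p = 0.017), highest in SE 72 h replicate 1, the library with the most Prox1. Stxbp6 was not called with SE 36 h replicates 2 or 3 or SE 72 h replicate 1 left out or in the ganglion-low libraries (log2FC 0.41 to 1.01, adjusted p = 0.029 to 0.14). Of 10 markers of monocytes and border macrophages, Ms4a7 rose from 0.593, 0.631 and 0.855 to 3.96, 2.48 and 2.97 CPM (log2FC 2.16 ± 0.58, adjusted p = 0.021). Chil3 was called higher at 0.445, 0 and 1.03 CPM at 36 h and 30.12, 3.91 and 0.926 at 72 h (log2FC 4.16 ± 1.07, adjusted p = 0.017), most of it in SE 72 h replicate 1. Lyve1 fell, as given above. Chil3 was not called with SE 36 h replicate 2 or SE 72 h replicate 1 left out or in the ganglion-low libraries (log2FC 1.99 to 3.46, adjusted p = 0.11 to 0.52). Ms4a7 was not called with SE 36 h replicates 1 or 2 or SE 72 h replicate 1 left out or in the ganglion-low libraries (log2FC 1.94 to 2.26, adjusted p = 0.069 to 0.12). Ccr2, the receptor of invading monocytes, was at 0.741, 0.158 and 0.513 CPM at 36 h and 6.86, 2.48 and 0.292 at 72 h (log2FC 2.46 ± 0.91, adjusted p = 0.094). None of 6 neutrophil, 3 T cell, 3 B cell, 5 red blood cell or 5 choroid plexus genes tested was called, nor any of 76 cytosolic ribosomal protein genes, 17 of cholesterol synthesis or 9 of sterol efflux. Of 88 genes of oxidative phosphorylation 1, Cox6b2, rose (log2FC 1.62 ± 0.42, adjusted p = 0.018), though not with SE 36 h replicate 1 or SE 72 h replicate 3 left out or in the ganglion-low libraries (log2FC 1.51 to 1.72, adjusted p = 0.052 to 0.13).

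To ask whether these differences went beyond the passage of time in control mice, the SE effect at 72 h was tested against the SE effect at 36 h in 1 model, on the same 6 SE libraries and the controls. It differed for 644 of 18153 genes (3.55%), higher for 510 (2.81%) and lower for 134 (0.738%). The controls by themselves differed between 36 and 72 h for 213 genes (1.17%), 68 higher (0.375%) and 145 lower (0.799%). This split depended on the processing: it was 78 higher and 99 lower with library size alone, 152 and 135 under DESeq2, 17 and 5 without the RUVr factor, and 54 and 14 with at least 10 counts in every library. The count in the controls depended on single libraries: without Ctr 72 h replicate 2, the library with the most ganglion markers, no gene was called in the controls by edgeR, with 2470 at an unadjusted p under 0.05, and limma-voom on all libraries called 4 and DESeq2 287. Without Ctr 72 h replicate 1 or 3 the controls gave 1026 or 468 calls, and without Ctr 36 h replicate 1, 2 or 3 they gave 5, 19 or 61. The difference of the SE effect fell to 341 calls without Ctr 72 h replicate 2, to 383 without SE 36 h replicate 2 and to 366 and 350 without Ctr 36 h replicates 1 and 2. It rose to 1308 without Ctr 72 h replicate 1 and was 188 in the ganglion-low libraries, where no gene was called in the controls.

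By list, the SE effect was called higher at 72 h for 10 of 11 homeostatic microglia genes, 8 of 10 genes common to macrophages, 9 of 14 astrocyte homeostasis genes, 7 of 18 lysosomal genes, 6 of 21 mitotic genes and 5 of 20 disease-associated microglia genes. It was called higher for 3 of 14 complement genes, 3 of 11 clock output genes, 1 of 15 chemokines and none of 14 MHC genes. It was called lower at 72 h for 3 of 15 activity-induced effectors and 3 of 18 reactive astrocyte genes. The lower calls were 1 each of 13 MAPK feedback, 19 immediate early, 14 neuropeptide and 18 cytokine signalling genes. P2ry12 had a difference of 2.81 ± 0.32, adjusted p = 0.00015 on the log2 scale, Csf1r of 1.58 ± 0.19, adjusted p = 0.00027 and Gja1 of 1.72 ± 0.29, adjusted p = 0.0031. The difference was 1.43 ± 0.26, adjusted p = 0.0049 for Aldoc and 1.39 ± 0.16, adjusted p = 0.00015 for Grn. Among the falls, Scg2 had a difference of -2.05 ± 0.50, adjusted p = 0.024, Vgf of -2.15 ± 0.45, adjusted p = 0.011 and Adamts1 of -2.76 ± 0.46, adjusted p = 0.0028. Lif (-1.41 ± 0.97, adjusted p = 0.41) and Crh (-2.04 ± 1.004, adjusted p = 0.24) did not pass in this test, which carries the error of 4 groups.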

How the data were processed

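Whole CA1 was dissected by eye, polyadenylated RNA was made into unstranded libraries, and these were sequenced on a HiSeq1500. Per the study's methods and the submitters' processing notes, the authors trimmed reads with Trim Galore 0.6.6, aligned them with STAR 2.7.8a to GRCm39, handled alignments with SAMtools 1.10, and counted them per gene with HTSeq 0.13.5 without regard to strand, merging lanes and dropping genes of low count before deposit. The deposited values are raw counts of reads per gene in 24 libraries, 3 in each of 8 groups. They were used as deposited, with columns assigned to samples by their labels. Libraries held 2663936 to 30133731 counts, so genes of low count carry the largest errors, and intervals cover the spread between libraries only. No 2 libraries of a group agreed within sampling noise (chi-square per degree of freedom 4.77 to 65.85).

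Genes passing edgeR's filterByExpr (18153 of 18647) were fitted with edgeR 4.0.16 in R 4.3.3: TMM scaling, 8 groups and 1 RUVr factor (unwanted variation estimated from residuals) over all 24 libraries, quasi-likelihood F test, and Benjamini-Hochberg adjustment over all tested genes. A gene was called at an adjusted p of at most 0.05 and a log2FC of at least 1 in size, or 0.66 against control. The study's methods give 0.66. Its results give 1 for comparisons between SE times, where its figure legend gives 0.66. The s.e. is the log2FC divided by the square root of F. CPM are counts scaled by TMM library size. The difference of the SE effect was a contrast of 4 groups in the same fit. The fit was tested on simulated data with 200 changed genes. DESeq2 1.42.0, limma 3.58.1 (voom) and other scalings, filters, factors and left-out libraries were alternatives. The fits of the 15 SE libraries, without Ctr 72 h replicate 2, and of the ganglion-low libraries were chosen after seeing the data. Gene positions came from GENCODE M39 on GRCm39, which matched 18552 genes, and promoters from RefSeq on GRCm38.p6. Of the 750 called genes, 97 share over 20% of their exonic bases with another gene, and unstranded counts cannot separate them.

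Genes named are the 15 largest rises and 15 largest falls among called genes whose log2 CPM averaged at least 1 and whose libraries did not overlap, then called members of each list by size of change, then members standing against their list. Uncalled members were picked after their values were seen. The comparison, the 54 lists and the alternatives were chosen with earlier results of these data known. Some genes are not reported here.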

Additional observations from a re-analysis of the deposited data

Results flagged for a closer look

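The SE effect, SE against Ctr, differed between 72 h and 36 h in edgeR's test of the difference for 644 genes. Among the genes with the largest changes between the SE times, the SE effect was more positive at 72 h by a log2 difference of 4.25 for Btbd17, 3.60 for Siglech, 3.35 for Cd33, 3.08 for Slc2a5, 2.62 for Pld4, 2.32 for Igfbp2 and 2.17 for Csf3r. It was more negative at 72 h, with a log2 difference of -3.47 for Ptgs2, -3.54 for Lyve1, -3.83 for Inhba, -4.06 for Ankrd34c and -4.45 for Fndc9. These genes were ranked on the same SE libraries, so the differences are no independent check of their change. The controls of the 2 times entered the test, and Ctr 72 h replicate 2 holds the most sensory ganglion markers. Its part in single genes was not tested.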

How the results depend on the processing

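The count of 750 called genes (560 higher, 190 lower) stayed within 1.5 times under DESeq2 (929), limma-voom (878), DESeq2 size factors (742), library size alone (730), no filter (751), no RUVr factor (546), the 2 groups alone (539), the range of label numbers as a factor (756), 1 such range alone (777), the 15 SE libraries (677) and without Ctr 72 h replicate 2 (833). The share called higher ran from 68.8% to 79.4% over these. With at least 10 counts asked of every library it was 399 (310 higher, 89 lower), at a log2FC of 0.66 it was 1241 (914 and 327), with no limit on log2FC 1878 (1180 and 698), and in the ganglion-low libraries 491 (377 and 114). Leaving out 1 SE library gave 371 to 799 calls, 282 to 578 higher and 89 to 221 lower, and 72 to 120 called list genes beside 110, with the fewest without SE 36 h replicate 2. Same-numbered replicates did not deviate together (r = -0.164, -0.125 and -0.348). Ganglion transcripts, high in SE 36 h replicate 3 and low in SE 72 h replicate 3, enter these values, so they cannot decide whether the numbers pair libraries. The label numbers of these replicates 3 were 102 and 104, and those of the other SE libraries of these times 117 to 120. A replicate block gave 776 calls, 716 of them among the 750. With the block, the 2 groups alone and no RUVr factor, 0 genes and 0 list genes were called by edgeR, with 3666 at an unadjusted p under 0.05, in a fit with 2 residual degrees of freedom.

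The difference of the SE effect (644) was 844 under DESeq2, 692 with the replicate block, 336 under limma-voom, 288 without the RUVr factor, 388 with at least 10 counts, 371 with the label range as a factor, 222 with the block, the 4 groups alone and no RUVr factor, 188 in the ganglion-low libraries, and 341 to 1308 on leaving out 1 library. The difference between the controls (213) was 287 under DESeq2, 229 with the block, 4 under limma-voom, 22 without the RUVr factor, 68 with at least 10 counts, 577 with the 2 groups alone, 0 with the block and no RUVr factor (1923 at an unadjusted p under 0.05), 0 in the libraries low in ganglion markers (2595), and 0 to 1026 on leaving out 1 library. The cause was not tested for any of these. The balance of the control calls, 68 higher and 145 lower, turned to mostly higher under DESeq2 (152 and 135), limma-voom (3 and 1), no RUVr factor (17 and 5) and at least 10 counts (54 and 14). Of the named genes called between the SE times, none changed sign under any alternative, while some uncalled ones did, such as Fos, Egr1, Aqp4 and Ccr2 in the ganglion-low libraries. Over all alternatives, single genes kept their side of the threshold in 4892 cases, lost a call in 421 and gained one in 160, and list counts stayed within 1.5 times in 2211 cases and moved by more in 273.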
